A study of Mus musculus with 75 samples.

Results

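The opioid receptor genes Oprm1 (mu), Oprd1 (delta), Oprk1 (kappa) and Oprl1 (the nociceptin receptor) were followed in sorted neuronal nuclei of the mouse nucleus accumbens. They were taken by gene symbol from the raw count table, which held 55401 gene identifiers, and all 4 were found. The nuclei came from male mice that carried a Cre-dependent eGFP::L10a allele (LSL-eGFP::L10a), a ribosomal protein with a fluorescent tag, together with D1-Cre or D2-Cre, Cre driven by the gene of the D1 or the D2 dopamine receptor. Fluorescent nuclei were sorted from 1 line at a time, and their nuclear RNA was sequenced as stranded total RNA. In both lines, CC mice had repeated cocaine and a cocaine challenge, CS mice repeated cocaine and a saline challenge, SC mice repeated saline and a cocaine challenge, and SS mice saline throughout. The repeated injections ran for 10 days, cocaine was given at 20 mg/kg intraperitoneally, 30 days passed before the challenge, and tissue was taken 1 h after it. There were 10 CC, 8 CS, 9 SC and 10 SS libraries of the D1 line and 10 CC, 10 CS, 9 SC and 9 SS libraries of the D2 line. The labels do not give the age of the mice or say whether libraries of a group came from separate animals, so every p-value measures the spread between these libraries.

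The receptors of this family are G protein-coupled receptors that act through Gi/o proteins: they lower adenylyl cyclase activity, open GIRK potassium channels and close presynaptic calcium channels. The mu receptor is the main target of morphine and binds beta-endorphin and enkephalins, the delta receptor prefers enkephalins, the kappa receptor prefers dynorphins, and the fourth receptor binds nociceptin and not the classical opioids. In the striatum, medium spiny neurons with D1 receptors make dynorphin from Pdyn, and those with D2 receptors make enkephalin from Penk. Cholinergic interneurons of the striatum also express Drd2, so that a D2-Cre driver can mark them together with D2 medium spiny neurons.

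Total counts per library had a median of 14893119 and ranged from 19825 to 34870414. In levels given per group, only the 71 libraries with more than 1000000 counts were used, while the fitted tests used all 75. Reads also lay over genes that these neurons are not known to use: 1464 olfactory and vomeronasal receptor genes served to measure this background density in each library. Spread over the genome's genes, the background accounted for 4.02% to 70.8% of a library's counts, with a median of 45.1% over the 71 libraries. A quality rule failed 17 of the 75 libraries, 13 of them for low depth. In 5 of these, 4 labelled D1 and 1 labelled D2, the ratio of Drd1 to Drd2 counts lay on the other line's side, and results are given with and without the failing libraries where these move them. At an adjusted p under 0.05, 6 of 9 D1 marker genes were called higher and 7 of 8 D2 marker genes lower in D1 libraries (edgeR, D1 minus D2 over treatments). Of all genes, 0.0561% were called higher and 0.148% lower there. The markers that did not pass had the sign of their list: Chrm4 (log2 change 1.04), Ebf1 (0.25), Eya1 (0.07) and Gpr6 (-1.01).

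On the GENCODE M21 annotation of mm10, Oprm1 (ENSMUSG00000000766.18) spans 279693 bases on the plus strand of chromosome 10 (6758506 to 7038198). Oprd1 (ENSMUSG00000050511.1) spans 33761 bases on the minus strand of chromosome 4 (132110726 to 132144486). Oprk1 (ENSMUSG00000025905.14) spans 17666 bases on the plus strand of chromosome 1 (5588466 to 5606131), and Oprl1 (ENSMUSG00000027584.17) spans 5970 bases on the plus strand of chromosome 2 (181715016 to 181720985). The annotation places no other gene over Oprd1, Oprk1 or Oprl1. Ipcef1 on the opposite strand overlaps 54.5% of Oprm1, and Gm10945 overlaps 3256 bases of its start, so the Oprm1 count is uncertain to the extent that the counting ignored strand, which is not given in the sources used here.

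RefSeq promoter sequence (GRCm38.p6) was on hand for 3 of the 4 genes, Oprk1 being the other. The 250 bases before a start site are shown for Oprd1, the gene that differed between the lines, and for Oprm1 and Oprl1 beside it; none of the windows overlaps an annotated exon. Capitals mark GC boxes (GGGCGG or its reverse complement CCGCCC, the motif bound by Sp1) and E-boxes (CACGTG, which is its own reverse complement).
Oprd1, chr4:132144487-132144736, minus strand: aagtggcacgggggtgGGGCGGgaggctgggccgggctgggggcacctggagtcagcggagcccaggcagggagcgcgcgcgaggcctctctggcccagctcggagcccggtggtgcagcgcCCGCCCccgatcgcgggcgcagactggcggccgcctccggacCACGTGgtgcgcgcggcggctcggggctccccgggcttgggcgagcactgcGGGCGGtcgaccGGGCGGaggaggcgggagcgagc
Oprm1, chr10:6788320-6788569, plus strand: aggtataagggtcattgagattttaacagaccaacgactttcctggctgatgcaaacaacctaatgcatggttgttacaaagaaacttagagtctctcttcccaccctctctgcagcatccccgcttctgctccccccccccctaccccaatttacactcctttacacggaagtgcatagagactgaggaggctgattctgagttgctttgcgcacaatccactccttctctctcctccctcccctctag
Oprl1, chr2:181714766-181715015, plus strand: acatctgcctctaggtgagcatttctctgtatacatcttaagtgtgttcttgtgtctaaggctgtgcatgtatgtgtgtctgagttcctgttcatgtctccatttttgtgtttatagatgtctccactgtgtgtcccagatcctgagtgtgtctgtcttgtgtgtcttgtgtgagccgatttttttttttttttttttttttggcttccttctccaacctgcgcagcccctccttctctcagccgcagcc
The Oprd1 window held 4 GC boxes and 1 E-box and was 80% G and C, against a median of 52.4% over 32851 RefSeq promoter windows of the same length. The Oprm1 window, before the downstream start sites of the gene, and the Oprl1 window, before its first, held neither motif and were 50% and 44.4% G and C. Oprm1 and Oprl1 each have 3 RefSeq starts, against 1 for Oprd1, and motifs before their other starts were not counted. Of all windows, 32.7% held a GC box and 6.02% an E-box, and the cyclic AMP response element TGACGTCA, present in 1.55% of windows, was in none of the 3. A match is a description of the letters and not of a bound site.

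The first question was how far each receptor stood above the background of its own library. Oprl1 and Oprk1 were the most densely read of the 4 genes, and Oprm1, the longest, lay closest to background. Read density over Oprl1 was 6.01 times background at the median of D1 libraries (2.39 to 245, n = 36) and 5.88 times in D2 libraries (1.65 to 55.8, n = 35). Over Oprk1 it was 4.78 times (1.54 to 133) in D1 and 3.73 times (1.68 to 60.4) in D2. Over Oprd1 it was 1.71 times (1.17 to 6.54) in D1 and 2.91 times (1.34 to 18.1) in D2. Over Oprm1 it was 1.29 times (0.994 to 11.8) in D1 and 1.40 times (0.358 to 10.4) in D2, and it stayed under 1.5 times background in 42 of the 71 libraries. The lowest Oprm1 value came from 1 D2_CS library, replicate 4, with 38 Oprm1 counts of 1367040. That is 27.8 counts per 1000000 total counts (CPM), with an exact 95% binomial interval of 19.7 to 38.2, which covers counting error only. Each of the other 70 libraries had at least 0.994 times background.

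Within libraries, Oprk1 was denser than Oprm1 in 36 of 36 D1 and 35 of 35 D2 libraries, and Oprl1 was denser than Oprk1 in 27 of 36 D1 and 28 of 35 D2 libraries, though in libraries with a background share under 20% in 3 of 7 D1 and 5 of 9 D2. In those low-background libraries Oprd1 was denser than Oprm1 in 1 of 7 D1 and 9 of 9 D2 libraries.

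**Figure D1:**
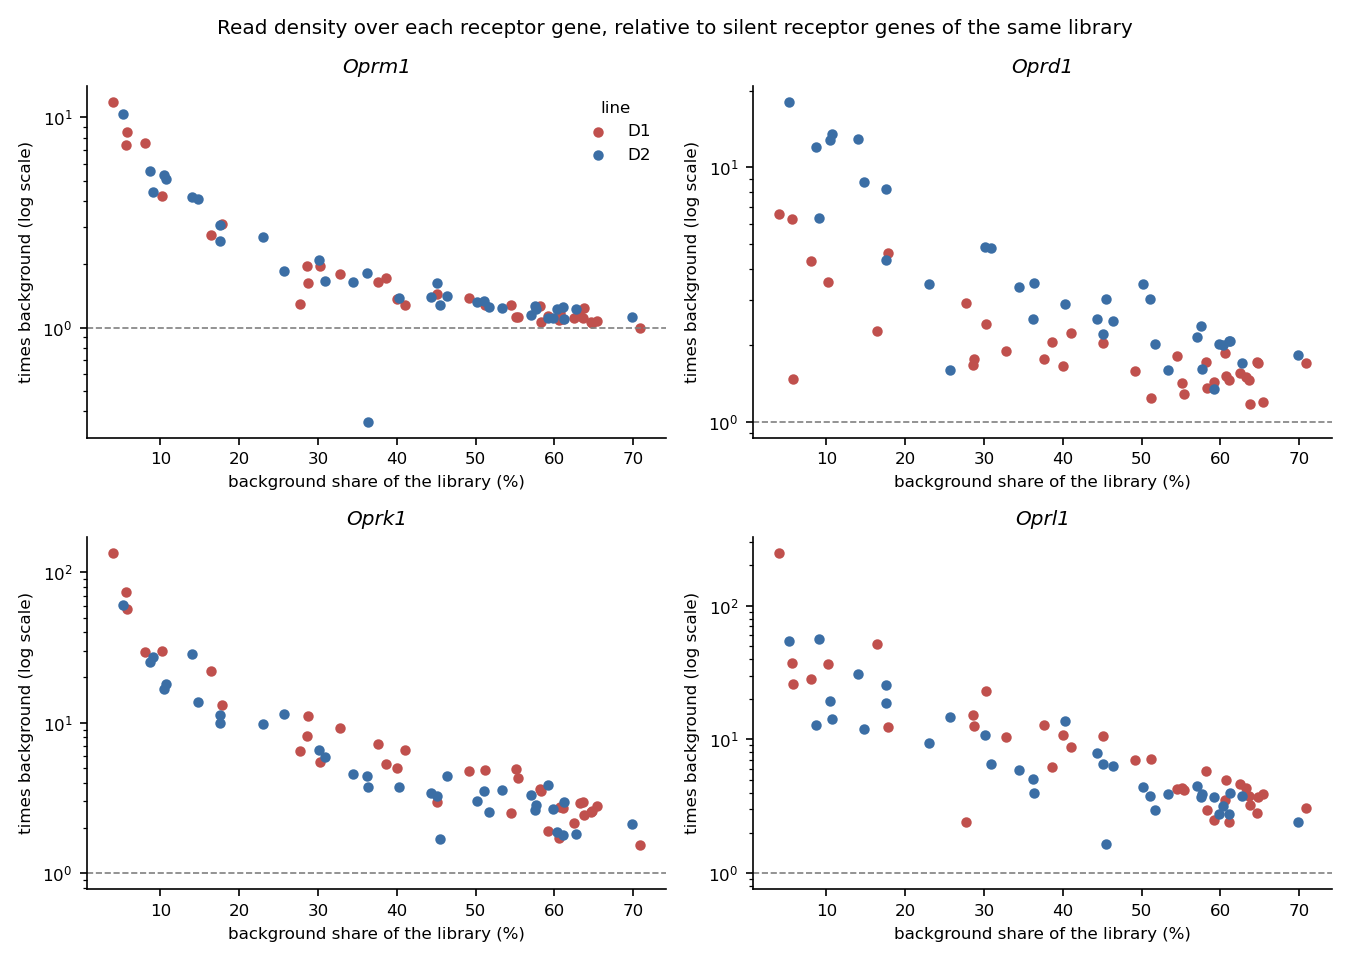
Read density over each receptor gene divided by that over silent receptor genes of the same library (log scale), against the background share of the library in percent; each point is 1 of 71 libraries, coloured by line, and the dashed line marks background level. Oprm1 comes down to between 0.994 and 1.45 times background in D1 libraries with a share over 45%, and Oprd1 has medians of 1.71 times background in D1 and 2.91 in D2 libraries, with overlapping ranges.

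How much of a gene's count background would give depended on the library. The expected background was 77.6% of Oprm1 counts at the median of D1 libraries and 71.2% in D2, against 58.6% and 34.4% for Oprd1, 20.9% and 26.8% for Oprk1, and 16.7% and 17.0% for Oprl1. For Oprm1 it was 13.5% (8.45% to 36.1%) in the 7 D1 and 22.7% (9.63% to 38.5%) in the 9 D2 libraries with a background share under 20%. It was 88.7% in the 20 D1 and 80.5% in the 17 D2 libraries with a share over 45%. Across libraries the CPM of Oprm1 went up with background share, with Pearson's r of 0.83 over 36 D1 libraries and 0.63 over 35 D2 libraries. For Oprd1, r was 0.85 in D1 libraries and 0.07 in D2 libraries; the difference of the 2 values was not tested. That of Oprk1 ran the other way, with r of -0.75 in D1 and -0.59 in D2, and Oprl1 had r of -0.41 in D1 and -0.30 in D2. These correlations are descriptions across libraries that share their scaling to the total count.

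Oprd1, the delta receptor gene, was lower in D1 than in D2 nuclei. In D1 libraries its CPM had a median of 20.3 (2.21 to 31.1, n = 36), and in D2 libraries a median of 31.1 (10.6 to 46.9, n = 35). All but 1 of the 36 D1 libraries lay below the D2 mean, although the ranges overlapped. The fitted change over the 4 treatments was -0.89 on the log2 scale (SE 0.126, edgeR quasi-likelihood test, adjusted p = 2.03e-06). Oprd1 was the only 1 of the 4 members called in that comparison, in which 0.204% of the 39250 genes tested were called, 22 higher (0.0561%) and 58 lower (0.148%) in D1. By p-value Oprd1 had rank 12 among all genes, after Pdyn at rank 11 and before Drd1 at rank 17. Adjusted p stayed below 0.05 under all 8 alternatives (log2 changes of -1.17 to -0.60) and with each SS library left out in turn (-0.90 to -0.85). Whether fewer expressing cells or less RNA per cell lay behind a lower level cannot be told apart in such pooled nuclei.

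The same direction appeared in each treatment. With SC treatment Oprd1 had a median of 15.1 CPM in D1 libraries (2.21 to 21.8, n = 8) and 34.6 CPM in D2 libraries (10.6 to 45.2, n = 9), and the log2 change was -1.19 (SE 0.257, edgeR adjusted p = 0.00511), in a comparison where 1.17% of genes were called. In CC the median was 19.7 CPM in D1 (6.77 to 28.5, n = 10) and 33.4 CPM in D2 (20.7 to 38.3, n = 9), with a log2 change of -0.85 (adjusted p = 0.181; 0.0204% of genes called). In CS it was 24.2 CPM in D1 (9.29 to 31.1, n = 8) and 25.6 CPM in D2 (14.9 to 46.9, n = 8), with a change of -0.78 (adjusted p = 0.0807; 3.59% called). In SS it was 20.2 CPM in D1 (12.3 to 29.1, n = 10) and 30.2 CPM in D2 (24.8 to 32.8, n = 9), with a change of -0.74 (unadjusted p = 0.00351, adjusted p = 1.00 by edgeR; 0.0255% called). The SS difference passed in 2 of 9 alternatives, limma with library weights (-0.67, adjusted p = 6.84e-05) and the compared groups only (-0.71, edgeR adjusted p = 0.0183). The CC difference also passed in 2 of 9, limma with library weights (-0.49, adjusted p = 0.00866) and edgeR with background share as a covariate (-0.79, adjusted p = 0.0271). All 10 D1_SS libraries were below the D2_SS mean. The ranges of D1 and D2 overlapped within every treatment. With only SC libraries in the fit, the SC difference was as large (-1.21) but no longer passed (adjusted p = 0.838).

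**Figure D2:**
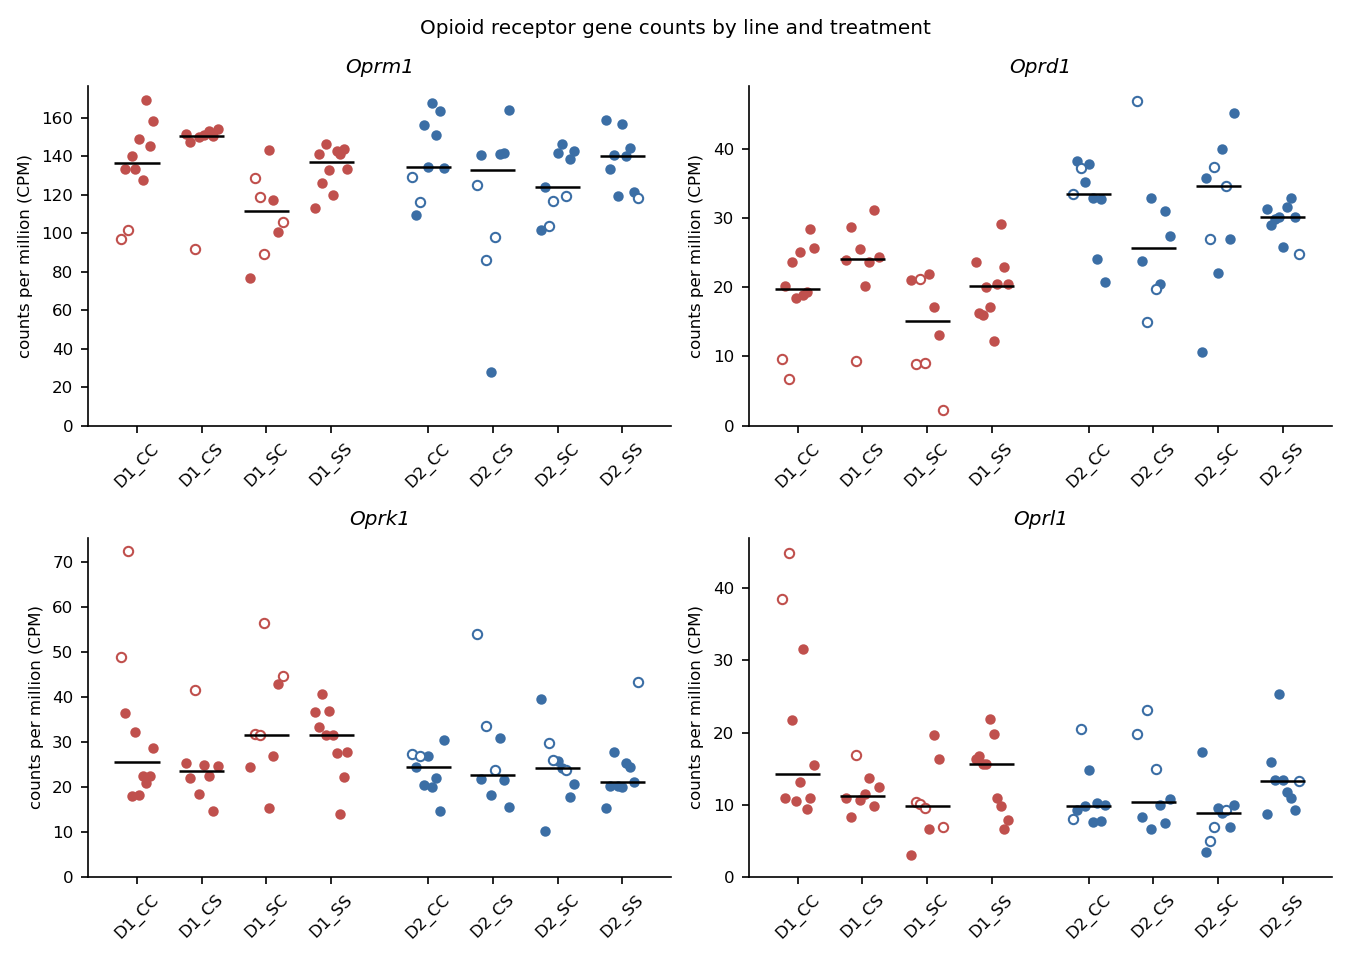
CPM of each receptor gene in the 71 libraries with over 1000000 counts, by line (D1 left, D2 right) and treatment; black bars are medians, and open points are libraries with a background share under 20%. Oprd1 medians run from 15.1 to 24.2 CPM in the D1 groups and from 25.6 to 34.6 CPM in the D2 groups, and the ranges of both lines overlap within every treatment for each of the 4 genes.

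Reading each library against its own background gave the same direction in the saline groups. Mean log2 density of Oprd1 over background was 0.75 in D1_SS (n = 10) and 1.61 in D2_SS (n = 9), a difference of -0.85 (two-sided exact permutation test, p = 0.000281, adjusted p = 0.00788 over 28 tests). The counts above background, per 1000000 counts that are not background, averaged 15.6 ± 8.20 CPM in D1_SS (SD, n = 10) and 33.8 ± 6.34 CPM in D2_SS (SD, n = 9; exact permutation p = 0.000238, adjusted p = 0.00667 over 28 tests). Of those 28 tests on the 4 genes, D1_SS against D2_SS and each treatment against SS in each line, this was the 1 that passed on either measure, and 4 had an unadjusted p under 0.05.

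The libraries with low background were also read on their own. In the 7 D1 and 9 D2 libraries with a background share under 20%, Oprd1 stood at a median of 7.37 CPM above background in D1 (0.754 to 20.1) and 34.7 CPM in D2 (13.8 to 50.3). The mean log2 difference was -2.31, or 4.96-fold lower in D1 (exact permutation p = 0.000524, adjusted p = 0.0021 over the 4 genes' tests). Of the 7 D1 libraries, 6 lay below every D2 library. The lowest, D1_SC replicate 9, had 8 Oprd1 counts (2.21 CPM, exact 95% binomial interval 0.954 to 4.35) and fails the quality rule. Its density was 1.47 times background with an interval of 0.636 to 2.90, which is not distinguishable from background, so the fold depends on a value that may be 0. Without that library the log2 difference was -1.81 (exact permutation p = 0.0012). Without failing libraries the log2 difference was -1.85 (exact p = 0.00311, 5 D1 and 8 D2 libraries), and with SC libraries alone it was -2.61 with no overlap, at the smallest p that 4 against 3 libraries allow (exact p = 0.0571). The 20% limit was set after the data were seen, and the libraries of both lines mix treatments.

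**Figure D3:**
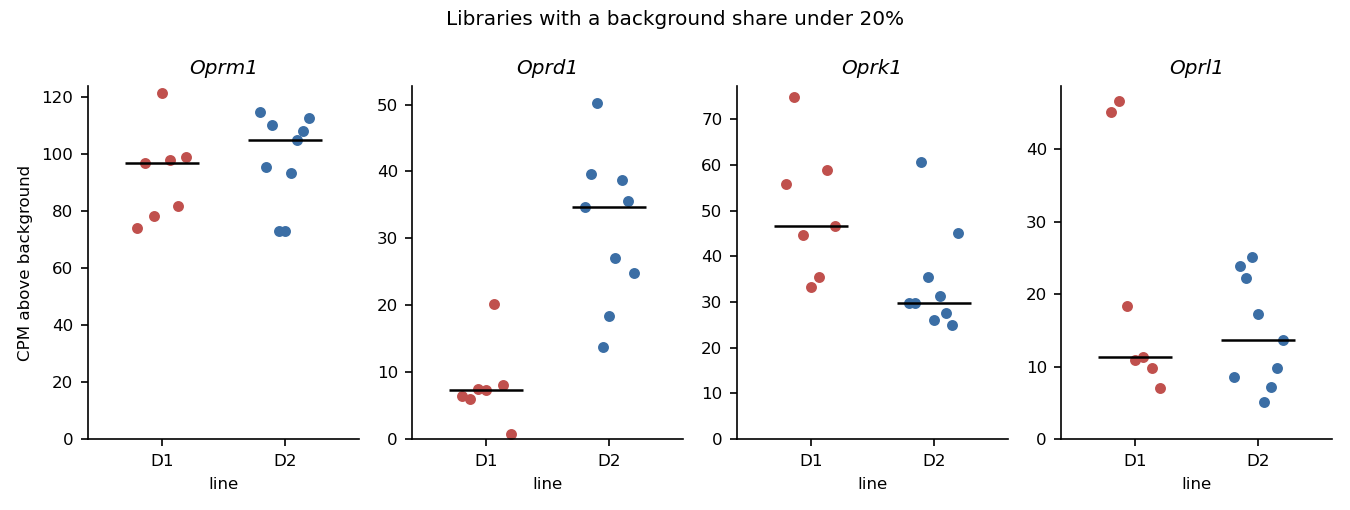
CPM above background of the 4 receptor genes in the 7 D1 and 9 D2 libraries with a background share under 20%; each point is a library, bars are medians, and axes start at 0. Oprd1 has medians of 7.37 in D1 and 34.7 in D2, with 1 D1 library, at 20.1, inside the D2 range.

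Markers of cholinergic interneurons, which a D2-Cre driver could add to the sort, were set beside this result. All 7 were detected, and their summed CPM ranged from 23.5 to 132 in D1 libraries (median 101) and from 37.7 to 141 in D2 libraries (median 98.5). Of the 7, Slc5a7, the choline transporter, was lower in D1 (log2 change -0.56, edgeR adjusted p = 0.0475). In low-background libraries their summed level above background had a median of 27.3 CPM in D1 (16.3 to 91.0) and 32.5 CPM in D2 (28.5 to 67.9). Chat, which makes acetylcholine, had medians of 7.51 CPM above background in D1 and 12.4 CPM in D2, and Slc18a3, the vesicular acetylcholine transporter, 0.397 and 0.361 CPM. The part of these cells in the Oprd1 difference was not tested.

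The 4 libraries labelled D1 that held a Drd1 to Drd2 ratio on the D2 side had Oprd1 at 23.7 CPM (D1_CC replicate 4), 28.5 CPM (D1_CC replicate 9), 25.5 CPM (D1_CS replicate 4) and 3.07 CPM (D1_SC replicate 5, with 651445 counts in all). The first 3 lie in the upper part of the D1 range of CPM, which for Oprd1 went up with background share (r = 0.85). Their shares were 45.1%, 64.8% and 54.4%, and their Oprd1 densities 2.035, 1.704 and 1.815 times background. The 20 D1 libraries with a share over 45%, these 3 among them, ranged from 1.174 to 2.035 times. The 17 such D2 libraries ranged from 1.342 to 3.486 times. The parts of the ratio and of background in these CPM values were not tested. Without all failing libraries the Oprd1 change over treatments was -0.91 (edgeR adjusted p = 1.98e-07).

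Oprm1, Oprk1 and Oprl1 were not called between the lines. Oprm1, the mu receptor gene, had a median of 137 CPM in D1 libraries (76.5 to 169) and 134 CPM in D2 libraries (27.8 to 168), with a change over treatments of 0.02 (SE 0.106, edgeR adjusted p = 1.00). Its sign turned under 3 alternatives, to -0.05, -0.11 and -0.18. In low-background libraries Oprm1 stood at 96.9 CPM above background in D1 (74.2 to 121) and 105 CPM in D2 (72.9 to 115), which overlap (exact permutation p = 0.513).

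Oprk1, the kappa receptor gene, had a median of 27.7 CPM in D1 (14.0 to 72.4) and 23.8 CPM in D2 (10.3 to 54.0), a change of 0.18 (SE 0.189, edgeR adjusted p = 1.00). In low-background libraries it stood at 46.7 CPM above background in D1 (33.3 to 74.8) and 29.7 CPM in D2 (24.999 to 60.6), which overlap (exact permutation p = 0.025, adjusted p = 0.05 over the 4 genes' tests, which is not under the threshold). It came under the threshold in 4 of 16 cases with 1 library left out, without D2_CS replicate 1 (adjusted p = 0.0087 by the exact permutation test), D1_SC replicate 2 (0.032), D1_SC replicate 3 (0.0384) or D2_SS replicate 9 (0.0385). Oprl1, the nociceptin receptor gene, had a median of 11.3 CPM in D1 (3.05 to 44.9) and 9.91 CPM in D2 (3.43 to 25.3), a change of 0.20 (SE 0.197, edgeR adjusted p = 1.00). Its values above background in low-background libraries had medians of 11.3 CPM in D1 (7.05 to 46.6) and 13.7 CPM in D2 (5.10 to 25.1). The mean log2 difference ran the other way, at 0.35, higher in D1 (exact permutation p = 0.465). It was 0.11 without D1_CC replicate 1 and 0.10 without D1_CC replicate 3. With limma and library weights both genes passed as higher in D1 (Oprk1 0.48, adjusted p = 0.00104; Oprl1 0.48, adjusted p = 0.00226), in a fit that called 5232 genes, against 80 by edgeR. Per kilobase of span in low-background D1 libraries, levels above background had medians of 0.346 CPM for Oprm1, 0.218 for Oprd1, 2.64 for Oprk1 and 1.89 for Oprl1. In D2 libraries they were 0.375, 1.03, 1.68 and 2.30 CPM per kilobase.

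**Figure D4:**
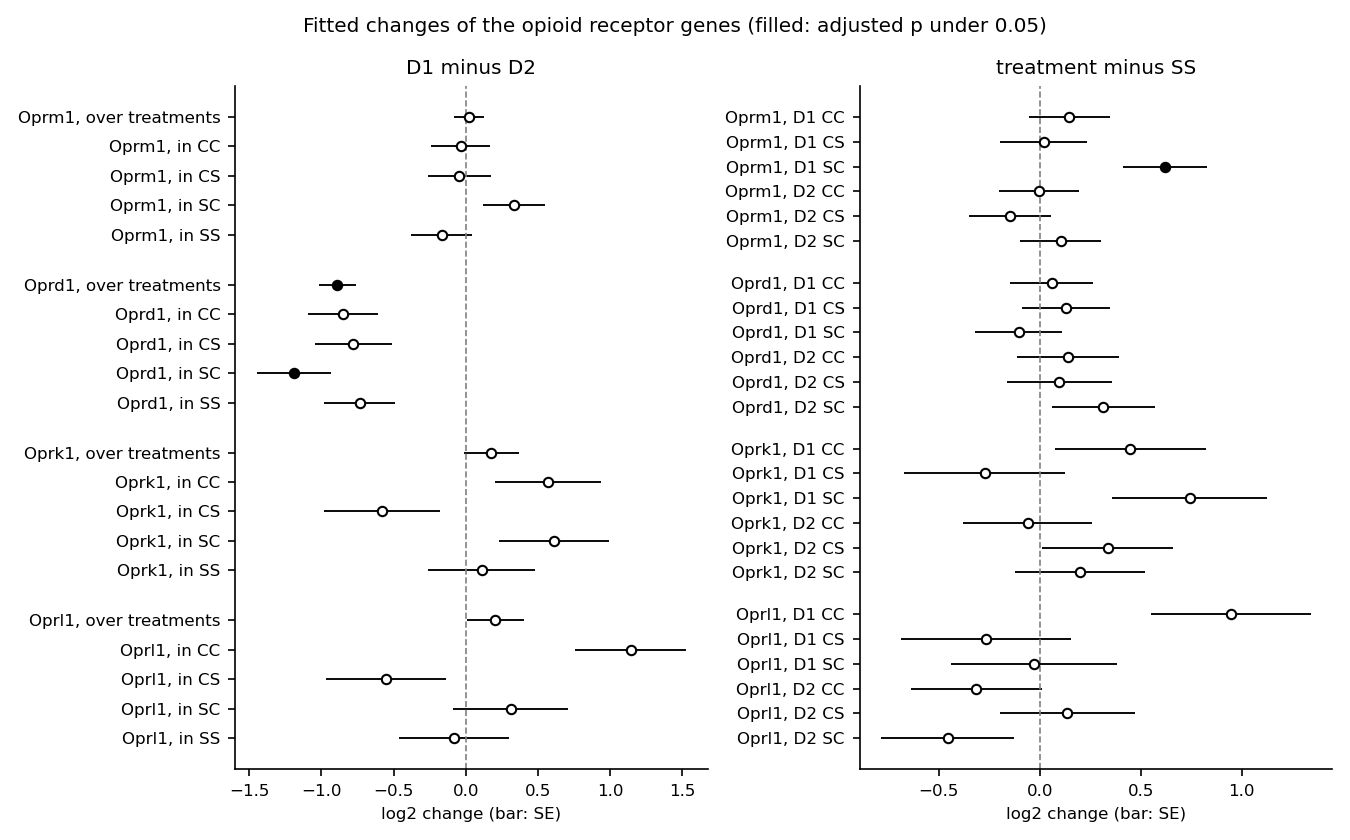
Log2 changes of the 4 receptor genes from the edgeR fits, D1 minus D2 on the left and each treatment minus SS within a line on the right. Bars are standard errors worked back from the change and its F statistic, and filled points have an adjusted p under 0.05. The filled points are Oprd1 over treatments (-0.89) and in SC (-1.19), and Oprm1 in D1 SC minus SS (0.62).

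The second question was whether cocaine history or challenge moved a receptor within a line. Of 48 tests, 12 comparisons for each of the 4 genes, 1 passed and 6 had an unadjusted p under 0.05 by edgeR. The share of all genes called was 11.3% in D1 SC minus SS, 8.31% in D1 CC minus CS, 10.5% in D1 CC minus SC, 0.0859% in D2 CS minus SS and 0.252% in D2 CC minus CS. It was 0% in D1 CS minus SS, D1 CC minus SS, the D1 interaction, and D2 SC minus SS, CC minus SS, CC minus SC and interaction.

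Oprm1 was the 1 gene called, as higher in D1_SC than in D1_SS (log2 change 0.62, SE 0.209, edgeR adjusted p = 0.0462), but its level per total count ran the other way. Its median was 111 CPM in D1_SC (76.5 to 143, n = 8) and 137 CPM in D1_SS (113 to 146, n = 10), and 7 of 8 D1_SC libraries lay below the D1_SS mean. The fit also held D1_SC replicate 5, with 205 Oprm1 counts of 651445. TMM scaling factors, which need not equal those of this fit, had a median of 0.833 in D1_SC and 1.10 in D1_SS. Levels scaled by them had medians of 129 CPM in D1_SC (95.8 to 237) and 125 CPM in D1_SS (97.5 to 137). D1_SC replicate 5 was left out of these medians. The background share was 22.8% at the median of D1_SC libraries (5.61% to 59.2%) and 45.1% in D1_SS (28.6% to 61.1%), and its part in the result was not tested. Without D1_SC replicate 5 the change was 0.08 (adjusted p = 0.708). Under all 9 alternatives the call was lost, and with limma and library weights the sign turned (-0.03). Counts above background averaged 71.6 ± 33.6 CPM in D1_SC (SD, n = 8) and 62.0 ± 27.5 CPM in D1_SS (SD, n = 10). In the D2 line the SC minus SS change of Oprm1 was 0.10 (adjusted p = 0.996), and the D1 change minus the D2 change was 0.50, which did not pass (edgeR  adjusted p = 0.967).

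**Figure D5:**
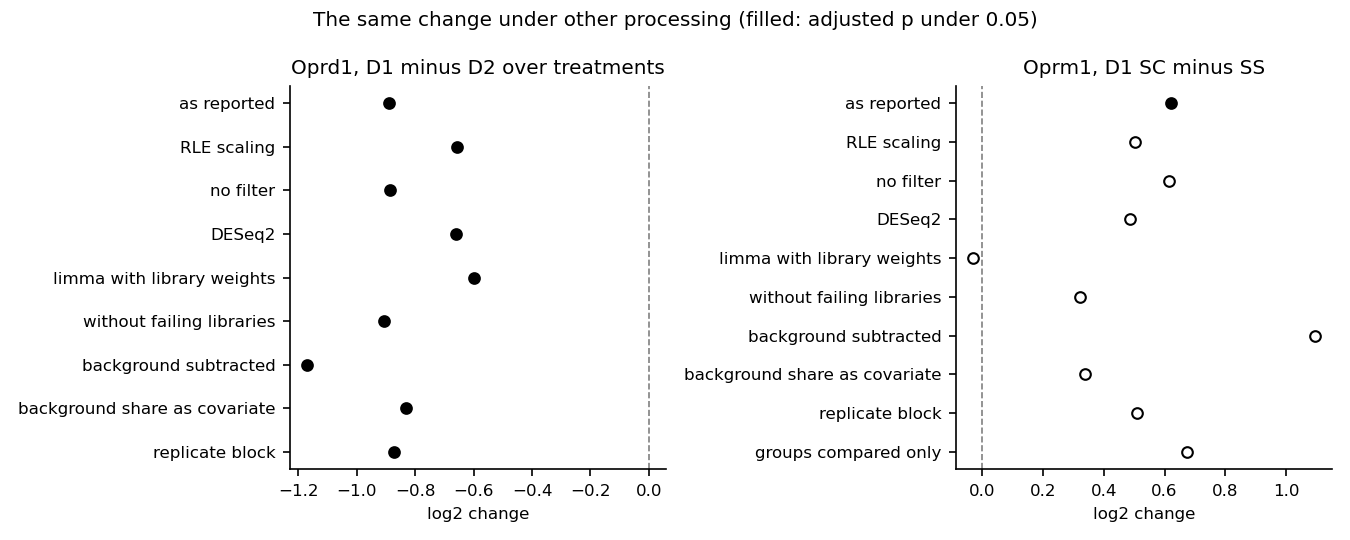
Log2 changes of Oprd1 in D1 minus D2 over treatments and of Oprm1 in D1 SC minus SS, as reported and under each alternative processing; filled points have an adjusted p under 0.05. All Oprd1 points are filled, from -1.17 to -0.60, and of the Oprm1 points only the reported one, 0.62, is.

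Oprd1 did not pass in any treatment comparison. Its changes against SS were 0.06 (CC), 0.13 (CS) and -0.10 (SC) in D1, and 0.14 (CC), 0.10 (CS) and 0.31 (SC) in D2, with standard errors of 0.206 to 0.261. Group medians, given with their ranges above, fell in the order D2_SC, D2_CC, D2_SS, D2_CS, D1_CS, D1_SS, D1_CC and D1_SC, and neighbours in that order overlapped.

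Oprk1 in D1 had medians of 25.6 CPM in CC (17.99 to 72.4, n = 10), 23.6 CPM in CS (14.7 to 41.5, n = 8), 31.7 CPM in SC (15.3 to 56.5, n = 8) and 31.5 CPM in SS (14.0 to 40.8, n = 10). In D2 they were 24.5 CPM in CC (14.7 to 30.4, n = 9), 22.8 CPM in CS (15.5 to 54.0, n = 8), 24.1 CPM in SC (10.3 to 39.6, n = 9) and 21.1 CPM in SS (15.3 to 43.4, n = 9). All 8 groups overlapped. Its largest fitted change against SS was 0.74 in D1 SC (SE 0.386, edgeR adjusted p = 0.175), where the sign turned with background share as a covariate (-0.28). Without D1_SC replicate 4 that change was 0.27 (edgeR adjusted p = 0.672).

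Oprl1 in D1 had medians of 14.3 CPM in CC (9.47 to 44.9, n = 10), 11.2 CPM in CS (8.28 to 16.9, n = 8), 9.80 CPM in SC (3.05 to 19.7, n = 8) and 15.7 CPM in SS (6.66 to 21.9, n = 10). In D2 they were 9.78 CPM in CC (7.69 to 20.5, n = 9), 10.4 CPM in CS (6.58 to 23.2, n = 8), 8.85 CPM in SC (3.43 to 17.3, n = 9) and 13.2 CPM in SS (8.79 to 25.3, n = 9). The groups overlapped. In D1_CC, 2 libraries with low background, replicates 1 and 3, reached 38.5 and 44.9 CPM, and replicate 3 fails the quality rule. The fitted changes of Oprl1 were 0.94 in D1 CC minus SS (SE 0.396, adjusted p = 0.695), 1.21 in D1 CC minus CS (SE 0.430, adjusted p = 0.0722) and 0.98 in D1 CC minus SC (SE 0.415, adjusted p = 0.104), all by edgeR. Without D1_CC replicate 3, the first was 0.53 and the second 0.80. The second passed in 8 of 37 cases with 1 library left out, and was highest, at 1.55, without D1_CS replicate 3 (edgeR adjusted p = 0.0189). DESeq2 called D1 CC minus SC (0.94, adjusted p = 0.0337), where it called 20.1% of all genes. With background share as a covariate edgeR called it too (1.29, adjusted p = 0.00299), where 18.5% of all genes were called. In the comparison of lines within CC, Oprl1 was at a D1 minus D2 change of 1.14 (SE 0.383, edgeR adjusted p = 0.181), which passed with DESeq2 (0.98, adjusted p = 0.0466) and with the covariate (0.97, adjusted p = 0.0225). With limma and library weights the D1 CC minus SS change turned to -0.18. That setting called Oprl1 lower than SS in D2 SC (-0.53), D2 CS (-0.50) and D2 CC (-0.48), for which edgeR gave -0.46, 0.14 and -0.32 with adjusted p of 0.988 to 1.00. Its counts above background averaged 11.1 ± 5.98 CPM in D2_SC (SD, n = 9) and 21.03 ± 8.09 CPM in D2_SS (SD, n = 9; exact permutation p = 0.0065, adjusted p = 0.091 over 28 tests).

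None of the 12 tests of a difference between D1 and D2 changes passed by edgeR, limma or DESeq2, and 1 had an unadjusted p under 0.05 by edgeR. The share of genes called in these comparisons was 0.028% for SC, 0.0892% for CS and 0% for CC. The smallest p was that of Oprl1 in CC (1.23, SE 0.537, unadjusted p = 0.0252, adjusted p = 0.82).

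Other genes of opioid signalling were counted between the lines from 10 lists, in the comparison where 0.0561% of all genes were called higher and 0.148% lower. Of 4 precursor genes of opioid peptides, 1 was higher and 1 lower in D1: Pdyn, the dynorphin precursor (log2 change 1.84, edgeR adjusted p = 8.44e-07), and Penk, the enkephalin precursor (-1.45, adjusted p = 0.00409). In low-background libraries Pdyn stood at 69.8 CPM above background in D1 (52.0 to 501) and 14.0 CPM in D2 (6.004 to 86.0), and Penk at 82.9 CPM in D1 (35.5 to 1013) and 432 CPM in D2 (243 to 3486). Pomc and Pnoc did not pass, and Pnoc, the nociceptin precursor, stood at 2.40 CPM in D1 (-0.583 to 10.2) and 2.76 CPM in D2 (-1.19 to 16.9), near background. Pdyn was also the 1 of 8 striosome genes called, the only other call. No member passed among 9 genes of peptide processing and breakdown, 5 Gi/o and Gz alpha subunits, 7 GRK and arrestin genes and 4 GIRK channels. None passed among 8 genes of RGS proteins and their partner Gnb5, 2 presynaptic calcium channels, 7 adenylyl cyclases and 6 matrix genes. The median changes of these lists without a call lay between -0.12 and 0.06, beside -0.0028 over all genes tested. At those shares of all genes, lists of 2 to 9 genes would hold no call in most cases, so their counts of 0 say nothing particular to them.

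In D1 SC minus SS, where Oprm1 was called, 5 of 8 genes of the RGS list were called higher. The list holds genes of RGS proteins, which speed the end of G protein signals, and Gnb5, a partner of some of them. Among the 5 were Rgs20 (1.02, edgeR adjusted p = 0.00597), Rgs17 (1.15, adjusted p = 0.0073) and Gnb5 itself (1.23, adjusted p = 0.0225). Both presynaptic calcium channel genes, Cacna1a (0.86) and Cacna1b (0.79), were called higher, as were 2 of 5 alpha subunits, Gnaz (1.47) and Gnao1 (1.04). In the other lists, 0 of 4 precursors, 1 of 9 peptide processing genes (Pcsk2, 1.46), 1 of 7 GRK and arrestin genes (Arrb1, 0.80), 1 of 4 GIRK channels (Kcnj3, 0.75), 2 of 7 adenylyl cyclases (Adcy9, 1.08, and Adcy1, 0.57), 1 of 8 striosome genes (Bach2, 0.50) and 1 of 6 matrix genes (Epha4, 0.83) were called higher. No member of the 10 lists was called lower. Of all genes 9.7% were called higher and 1.64% lower there, and the median over all genes was -0.07. In the same comparison 8 of 11 medium spiny neuron markers and 5 of 6 oligodendrocyte markers were called higher. Other cell type lists held fewer calls. Called higher were Neurod2 (1.59) and Slc17a7 (1.57) of glutamatergic neurons, Slc1a2 (1.54) of astrocytes and P2ry12 (0.94) of microglia. So was the D2 marker Drd2 (1.56, edgeR adjusted p = 0.0332), and Slc17a8 of cholinergic interneurons was called lower (-0.72). Markers of D1 neurons, other interneurons, oligodendrocyte precursors and endothelium held no call. With background share as a covariate, 2 genes of all 37721 were called, both higher. The parts of background share and of other cells in these changes were not tested.

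Genes whose levels ran most like those of each receptor were looked for over the 58 libraries that pass the quality rule, with background share taken out, and are a description across libraries of both lines. For Oprd1 they were Grik3 (r = 0.87), Nt5e (0.87), Ndnf (0.86), Ankk1 (0.86) and Drd2 (0.85), among 17056 genes. Ankk1 lies 7016 bases from Drd2. Within the 29 D1 libraries Oprd1 and Drd2 had r = 0.48, and within the 29 D2 libraries 0.53, while for Ndnf r was 0.09 in D1 and 0.56 in D2. For Oprk1 the genes were Strip2 (0.78), Nexn (0.74), Ndfip2 (0.73), Atp2b1 (0.72) and Stk26 (0.71). For Oprl1 they were Bscl2 (0.90), Klhdc2 (0.89), Gfer (0.89), Tmem130 (0.89) and Ddx47 (0.88), which span 2970 to 25904 bases. For Oprm1 they were Nalcn (0.83), Pcdha12 (0.82), 2 identifiers named Pcdha11 (0.81 each) and Fndc3a (0.81), which span 167509 to 350511 bases, against a median of 18393 bases over genes of that level. The Pcdha genes overlap each other, so their counts are uncertain. Between the receptors themselves r was 0.36 for Oprm1 with Oprd1, -0.34 for Oprd1 with either Oprk1 or Oprl1, and 0.33 for Oprk1 with Oprl1.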

How the data were processed

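Nuclear RNA of sorted nuclei was measured in 75 libraries. The deposited raw counts per gene were made by the authors with featureCounts on mm10, and DESeq2 was also used, per the submitters' processing notes. Of the counting, the aligner, annotation and strand setting are not given in the sources used here. Only to check gene lengths, the authors' deposited FPKM values were used: for all 54271 identifiers that could be checked, the length behind the FPKM was that of the whole gene span, introns included. Every column of the table belonged to a labelled sample (0 did not), and no libraries were identical.

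Tests on counts were made in R 4.3.3 by edgeR 4.0.16 (TMM scaling, filterByExpr by group, quasi-likelihood test, Benjamini-Hochberg adjustment over all genes, threshold 0.05), in 1 fit per line and 1 fit of all 75 libraries. Each group's treatments and both lines' groups were compared as the labels name them. The SE of an edgeR change was worked back as its size over the square root of the quasi-likelihood F statistic. It is approximate and need not match the p-value. limma 3.58.1 with library weights, DESeq2 1.42.0, RLE scaling, no filter, background subtraction, background share as a covariate, a replicate block, fits of the compared groups only and leaving out libraries were alternatives. Levels are CPM of total counts, computed from the deposited counts, and precision is given by intervals that cover counting error only. Times background is reads per kilobase over those of 1464 silent olfactory and vomeronasal receptor genes. Libraries failed the quality rule for low counts, few genes, a Drd1 to Drd2 ratio on the other line's side, or a low correlation with their line. Permutation tests used scipy 1.17.1 (two-sided). The code was tested on simulated data.

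The genes named are the 4 receptors, the 5 genes most like each, at most 4 members of a pathway list by adjusted p, line and cell type markers, and overlapping genes. The members and lists were chosen with earlier results of these data known, and the 20% background limit and the levels above background were added after seeing the data.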

Additional observations from a re-analysis of the deposited data

Results flagged for a closer look

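Within groups, 6 of 32 sets of CPM values (4 genes in 8 groups) held 1 library far from the others by Dixon's criterion, which chance meets in about 1 in 20 groups. In D1_CS, replicate 3 had Oprm1 at 92.0 CPM, against 147.5 to 154 CPM in the other 7 libraries, and Oprk1 at 41.5 CPM, against 14.7 to 25.4 CPM. Oprk1 was also far above the others in D2_SS replicate 9 (43.4 CPM, others 15.3 to 27.8) and in D2_CS replicate 1 (54.0 CPM, others 15.5 to 33.6). These 3 libraries had background shares of 10.2%, 5.32% and 14.0%, among the lowest of their groups. Oprl1 stood apart in D2_SS replicate 4 (25.3 CPM, others 8.79 to 15.9) and in D2_SC replicate 1 (17.3 CPM, others 3.43 to 10.0). The part of background in these values was not tested.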

How the results depend on the processing

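The lower Oprd1 in D1 over treatments passed under all 8 alternatives, and no receptor was called for a difference between D1 and D2 changes under any of them. Calls between lines, 2 of 20 as reported, were 8 with limma and library weights and 4 with background share as a covariate, and 2 with each SS library left out (lowest 2, highest 2). Calls within a line, 1 of 48, were 7 with limma, 2 with the covariate and 0 with RLE scaling, without the filter, without failing libraries, with background subtracted and with the replicate block; leaving out libraries gave 0 to 2. With DESeq2 the 1 call was Oprl1 in D1 CC minus SC, where 20.1% of all genes were called, and not Oprm1. Oprm1 in D1 SC minus SS was 0.50 with RLE, 0.62 without the filter, 0.49 with DESeq2, -0.030 with limma, 0.32 without failing libraries, 1.09 with background subtracted, 0.34 with the covariate, 0.51 with the replicate block and 0.67 with the compared groups only (adjusted p 0.068 to 0.853), and 0.078 to 0.71 with a library left out. RLE scaling moved the median of all genes there to -0.25, from -0.07 with TMM. Oprd1 in SC was -1.21 with the compared groups only, and -1.19 at both ends with an SS library left out; over treatments leaving out gave -0.90 to -0.85. Oprm1 over treatments turned to -0.055 with limma, -0.11 without failing libraries and -0.18 with background subtracted, Oprk1 in D1 SC minus SS to -0.28 with the covariate, and Oprl1 in D1 CC minus SS to -0.18 with limma. In low-background libraries, Oprd1 was -2.61 in SC alone. Leaving out each such library gave -2.60 to -1.81 for Oprd1, -0.15 to -0.03 for Oprm1, 0.44 to 0.65 for Oprk1 and 0.10 to 0.56 for Oprl1. The cause of these shifts was not tested. Genes called in D1 SC minus SS, 4277 as reported (3659 higher, 618 lower), numbered 2 with the covariate, 333 with background subtracted, 1880 with the replicate block, 2736 with limma (1683 higher, 1053 lower) and 5651 with DESeq2 (3369 higher, 2282 lower). Between lines over treatments, 80 as reported (22 higher, 58 lower) became 42 with the block, 121 with DESeq2 (61 higher, 60 lower), 78 with RLE (47 higher, 31 lower), 145 with the covariate, 154 with background subtracted and 5232 with limma. Replicate numbers were not taken as pairs. Of 97 same-numbered pairs 39 had r over 0.1, and the median r was -0.0037, against 0.019 over other pairs. Levels also differ with background share, so these r cannot show that no libraries were paired. The block left Oprd1 over treatments at -0.87. Under plain CPM, 1 of the 5 genes most like Oprm1 and 3 of 5 for Oprl1 were shared. Fits of the compared groups alone gave no value over treatments, for interactions or for differences of changes, and in fits of both lines only SS libraries were left out.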
